A study of Homo sapiens with 12 samples.

Results

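Of the series, 4 of 12 libraries are described here: T47D cells 18 h after a progestin at 10 nM (2 libraries) against T47D cells 18 h after the same exposure at 100 pM (2 libraries). They were chosen by their labelled dose and time alone. T47D is an established line of human breast carcinoma cells in which progesterone and estrogen receptors are both expressed, and a progestin is a ligand that activates the first of these. The compound is not named in the labels. In every group the cells had been held in phenol red-free medium with charcoal-stripped serum, which is low in steroids, and were serum-starved before treatment. The other groups, with 2 libraries each, were vehicle at 18 h, 10 nM at 6 h, 100 pM at 6 h and vehicle at 6 h. All are 1 cell line grown in culture plates, without the stroma of a breast. According to its title the series is about how the response of breast cancer cells depends on the progestin level, and the comparison of both doses addresses that at the later time.

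The progesterone receptor is a nuclear receptor that binds DNA at hormone response elements once it holds its ligand, and it can raise or lower transcription of nearby genes. In breast epithelium progestins act with estrogen on ductal branching, alveolar development and proliferation. In T47D cells they are known to drive entry into the cell cycle, followed by a slowing of proliferation, and to induce genes of lipid synthesis and secretion.

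The 4 libraries had 34204970 to 38510905 counts each. Levels are given as CPM (counts divided by the scaled library total), in the order replicate 1 and replicate 3. They are not divided by gene length, so they are compared between libraries and not between genes. Changes are log2 fold changes of 10 nM over 100 pM ± SE, from edgeR's quasi-likelihood test. A gene was called where the Benjamini-Hochberg adjusted p over all 13872 genes tested was under 0.05. Single libraries are named by dose and number, such as 10 nM 1. The labels do not tell whether both libraries of a group were grown as separate cultures, so the p-values reflect the spread between these libraries only, and that spread may be technical. Among the 6 libraries of 18 h, the first principal component held 65.8% of the variance and the second 20.7%. The third, with 9.71%, followed the replicate number. Mitochondrially encoded genes took 6.75% and 9.49% of counts at 10 nM, and 6.69% and 8.59% at 100 pM. The 9 markers of luminal breast cancer lines, the labelled cell type, were detected in all 4 libraries and summed to 5423 and 5332 CPM at 10 nM and 11203 and 10131 CPM at 100 pM. Markers of fibroblasts (10 genes) summed to 81.2 and 73.0 CPM at 10 nM and 82.3 and 82.8 CPM at 100 pM, nearly all from COL1A1, and 0 of 6 tested were called (1 at an unadjusted p under 0.05, 0 by DESeq2). Those of immune cells (12 genes) summed to 5.51 and 5.08 CPM at 10 nM and 7.27 and 5.94 CPM at 100 pM, with 0 of 4 tested called (1 at an unadjusted p under 0.05, 0 by DESeq2) and at most 1 count per library of PTPRC, their defining gene. Those of endothelial cells (7 genes) summed to 4.28 and 3.71 CPM at 10 nM and 3.79 and 4.11 CPM at 100 pM, with 1 of 2 tested called (VWF, 3.01 ± 0.49) and at most 1 count per library of CDH5. With the replicate number as a term in the fit, 1 fibroblast marker and 1 immune marker were called lower.

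Of the 13872 genes tested, 3635 (26.2%) were called between the doses at 18 h. Higher at 10 nM were 2051 (14.8%), of which 813 rose more than 2-fold and 337 more than 4-fold. Lower were 1584 (11.4%), of which 566 fell more than 2-fold and 124 more than 4-fold. With total count scaling 1767 were called higher and 1857 lower, so which direction had more calls depended on the scaling. The median change over all genes was 0.01. Both 10 nM libraries lay above both 100 pM libraries in 31.4% of genes and below both in 28.7%. The count of calls was 2288 without 10 nM 1 and 2391 without 100 pM 3, and 2917 without 10 nM 3 and 2819 without 100 pM 1.

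**Figure D1:**
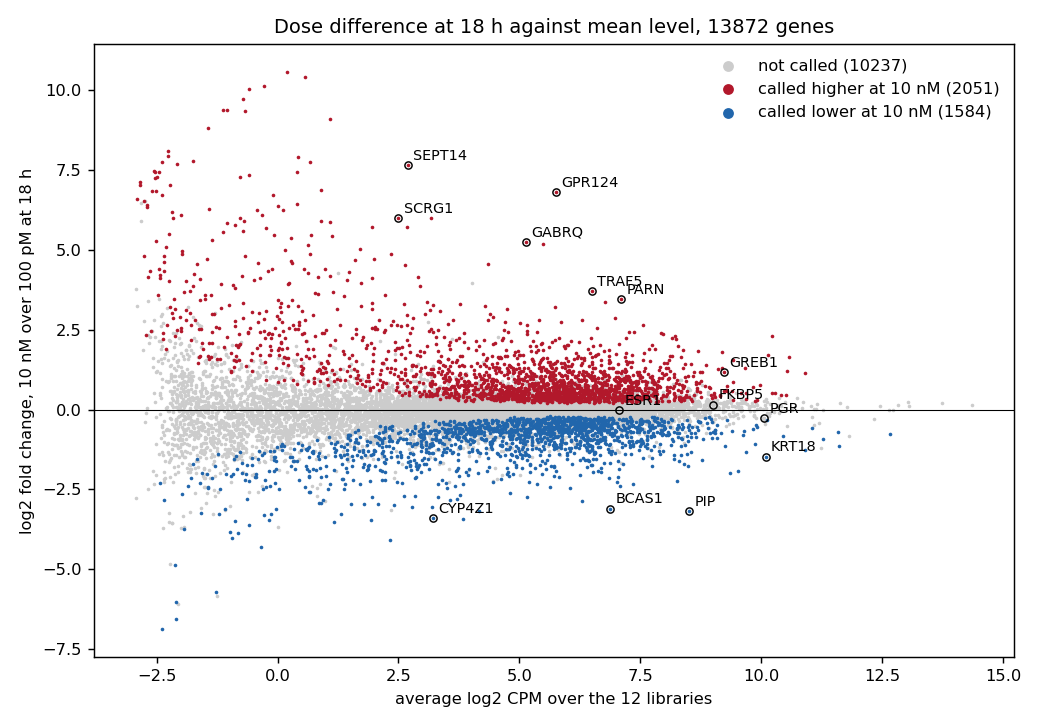
Log2 fold change of 10 nM over 100 pM at 18 h (y axis) against the average log2 CPM over the 12 libraries (x axis), 1 point per gene, with called genes in red (2051 higher) and blue (1584 lower). Among called genes 337 rises and 124 falls exceed 4-fold: GPR124 lies at 6.82 and BCAS1 at -3.10, while PGR, ESR1 and FKBP5 lie near 0.

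The 6 genes described first, from the 15 largest rises, had little RNA at 100 pM and in vehicle. GPR124, an adhesion G protein-coupled receptor that takes part in WNT7 signalling in brain vessels, had 214 and 276 CPM at 10 nM, against 2.36 and 1.97 CPM at 100 pM. Its vehicle libraries had 2.91 and 2.71 CPM, so the 100 pM libraries lay at the vehicle level and both 10 nM libraries stood apart (6.82 ± 0.31, 113-fold, adjusted p = 1.26e-05). SEPT14, a septin of the cytoskeletal GTP-binding family, had 32.3 and 39.8 CPM at 10 nM, against 0.260 and 0.0844 CPM at 100 pM (7.66 ± 0.65) and no count in vehicle. Its 100 pM libraries held 13 counts together, and the ratio of summed counts per library size was 206 (exact binomial 95% interval 120.0 to 386, counting error only). SCRG1, a small secreted protein, had 24.8 and 27.3 CPM at 10 nM, against 0.415 and 0.394 CPM at 100 pM (6.00 ± 0.30). Its vehicle libraries had 0 and 0.0271 CPM. CNTFR, the ligand-binding subunit of the ciliary neurotrophic factor receptor, had 26.3 and 29.7 CPM at 10 nM, against 0.338 and 0.535 CPM at 100 pM (6.00 ± 0.31). GABRQ, the theta subunit of the GABA-A receptor, had 139.8 and 161 CPM at 10 nM, against 2.91 and 4.93 CPM at 100 pM (5.26 ± 0.30). STMN3, a stathmin that destabilises microtubules, had 179 and 203 CPM at 10 nM, against 5.32 and 5.07 CPM at 100 pM (5.20 ± 0.29). In all 6 the doses were further apart than the 2 libraries of either dose, but no overlap between the doses was part of the rule that named them.

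Other members of the 15 had more RNA at 100 pM or smaller folds. PARN, a ribonuclease that shortens poly(A) tails, had 410.3 and 533 CPM at 10 nM, against 39.4 and 46.9 CPM at 100 pM (3.45 ± 0.22). TRAF5, an adaptor of tumour necrosis factor receptors, had 268 and 296 CPM at 10 nM, against 21.1 and 22.1 CPM at 100 pM (3.71 ± 0.13, adjusted p = 3.33e-06). A pair of secreted protease inhibitors was among them. SERPINE2, which blocks thrombin and plasminogen activators, had 22.5 and 21.0 CPM at 10 nM, against 1.35 and 0.535 CPM at 100 pM (4.51 ± 0.40). SLPI, which epithelia release against leukocyte elastase, had 38.9 and 38.0 CPM at 10 nM, against 3.45 and 1.77 CPM at 100 pM (3.87 ± 0.40). The other members were the leucine-rich repeat protein ELFN2 (5.73 ± 0.78), the metalloproteinase MMP28 (4.88 ± 0.42), the calcium-binding protein S100A1 (4.55 ± 0.30), the membrane skeleton protein EPB41L3 (4.17 ± 0.36) and the neuropeptide precursor NPW (3.57 ± 0.45). NPW differed between its 10 nM libraries, with 24.2 and 10.4 CPM at 10 nM, against 1.69 and 1.21 CPM at 100 pM. All 15 kept their call without any one of the 4 libraries, and their adjusted p ran from 3.33e-06 to 9.46e-04.

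**Figure D2:**
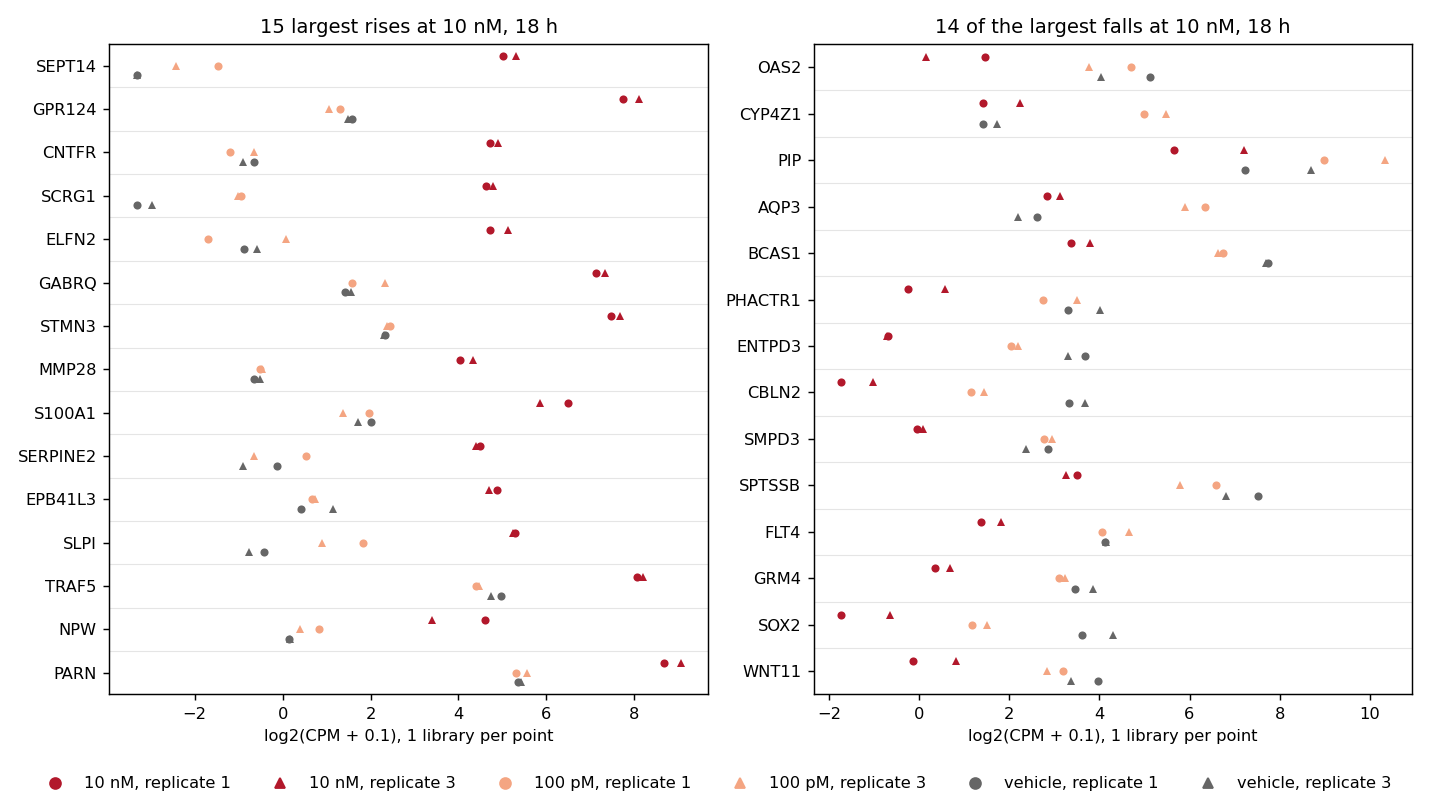
Level of the 15 genes with the largest called rises (left) and 14 of those with the largest called falls (right) in each 18 h library, as log2(CPM + 0.1), with 10 nM in red, 100 pM in orange and vehicle in grey (circles replicate 1, triangles replicate 3). In the left panel most 100 pM points sit beside the vehicle points, while in the right panel CYP4Z1, AQP3 and PIP are higher at 100 pM than at 10 nM and in vehicle.

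The 3 genes described first, from the largest falls, were higher at 100 pM than in both other groups, vehicle included. CYP4Z1, a fatty acid hydroxylase of the cytochrome P450 family that is known for its expression in breast, had 2.55 and 4.63 CPM at 10 nM, against 31.6 and 44.2 CPM at 100 pM, with 2.57 and 3.22 CPM in vehicle (-3.40 ± 0.49, adjusted p = 0.00123). AQP3, a channel for water and glycerol, had 7.09 and 8.60 CPM at 10 nM, against 81.1 and 59.6 CPM at 100 pM, with 6.01 and 4.495 CPM in vehicle (-3.16 ± 0.19). PIP, the prolactin-induced protein secreted by apocrine epithelium, had 50.1 and 148 CPM at 10 nM, against 506 and 1301 CPM at 100 pM (-3.19 ± 0.84). For PIP replicate 3 was well above replicate 1 at both doses and in vehicle (149.9 and 416 CPM). Its doses did not overlap, which the rule for naming it required.

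The other large falls were in genes that were also high in vehicle. BCAS1, a gene named for its amplification in breast carcinoma, had 10.2 and 13.8 CPM at 10 nM, against 107 and 99.5 CPM at 100 pM, with 216 and 209 CPM in vehicle (-3.10 ± 0.14, adjusted p = 1.26e-05). OAS2, the interferon-induced oligoadenylate synthetase, had 2.64 and 1.01 CPM at 10 nM, against 26.1 and 13.6 CPM at 100 pM (-3.44 ± 0.58). SOX2, a transcription factor of stem cells, had 0.201 and 0.534 CPM at 10 nM, against 2.16 and 2.73 CPM at 100 pM, with 12.2 and 19.6 CPM in vehicle (-2.72 ± 0.53). SPTSSB, a small subunit of serine palmitoyltransferase, had 11.3 and 9.49 CPM at 10 nM, against 95.9 and 55.0 CPM at 100 pM (-2.86 ± 0.48). SMPD3, a neutral sphingomyelinase, had 0.861 and 0.955 CPM at 10 nM, against 6.73 and 7.57 CPM at 100 pM (-2.97 ± 0.22). The rest were the actin regulator PHACTR1 (-3.05 ± 0.49), the ectonucleotidase ENTPD3 (-3.05 ± 0.35), the synapse organiser CBLN2 (-2.98 ± 0.32), the growth factor receptor FLT4 (-2.82 ± 0.33), the glutamate receptor GRM4 (-2.73 ± 0.23) and the ligand WNT11 (-2.70 ± 0.58). Leaving out 1 library ended the calls of PIP (without 10 nM 1 or 100 pM 3, adjusted p of 0.115 to 0.130) and WNT11 (without 10 nM 1, adjusted p = 0.0705), and of none of the other 12 falls named here.

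The progesterone receptor binds a palindrome of the hexamer AGAACA, and stretches of 4 promoters are shown because these genes, among the genes above, hold such a hexamer there. The sequences are from RefSeq (GRCh38.p14), read 5′ to 3′ on the strand of the gene, with AGAACA or its reverse complement TGTTCT in capitals.
SCRG1, chr4:173399287-173399366, minus strand: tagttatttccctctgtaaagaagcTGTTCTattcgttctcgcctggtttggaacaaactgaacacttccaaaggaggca
PIP, chr7:143131847-143131926, plus strand: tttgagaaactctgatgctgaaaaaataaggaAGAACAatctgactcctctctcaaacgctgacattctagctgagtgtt
CYP4Z1, chr1:47067081-47067160, plus strand: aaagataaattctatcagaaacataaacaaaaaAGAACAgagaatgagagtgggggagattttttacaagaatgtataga
PHACTR1, chr6:12716597-12716706, plus strand: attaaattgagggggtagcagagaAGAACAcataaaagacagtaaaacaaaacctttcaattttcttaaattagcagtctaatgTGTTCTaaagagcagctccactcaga
SCRG1 rose at 10 nM while the other 3 fell, so the same letters stand before genes of both directions. Over the 250 bases before the start, on either strand, the hexamer was found in 7.54% of 1658 promoters of genes called higher, in 7.37% of 1234 promoters of genes called lower and in 7.60% of 11141 promoters of tested genes. It was found in 12.4% of all 27305 promoters in the table. The full element (AGAACA, 3 unspecified bases, then TGTTCT), which contains the hexamer 2 times, was found in 0 of the 11141. These are matches of letters in a short window, and binding was not measured.

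Of the 6 steroid receptors 1 was called between the doses at 18 h, beside 26.2% of all genes. PGR, the progesterone receptor, had 523 and 328 CPM at 10 nM, against 627 and 393 CPM at 100 pM, with 1846 and 1379 CPM in vehicle (-0.26 ± 0.29, adjusted p = 0.553). ESR1, the estrogen receptor alpha, had 84.1 and 108 CPM at 10 nM, against 99.1 and 97.0 CPM at 100 pM, with 165 and 189 CPM in vehicle (-0.03 ± 0.19, adjusted p = 0.938). In both genes the doses overlapped and all 4 progestin libraries lay below both vehicle libraries. NR3C1, the glucocorticoid receptor, had 19.1 and 13.5 CPM at 10 nM, against 11.9 and 13.8 CPM at 100 pM, and the doses overlapped (adjusted p = 0.255). The called receptor was NR3C2, the mineralocorticoid receptor, which had 10.8 and 13.1 CPM at 10 nM, against 7.30 and 6.53 CPM at 100 pM (0.79 ± 0.13, adjusted p = 0.00250).

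Of 29 tested genes known to respond to progestins or glucocorticoids, 9 rose at 10 nM, 2 fell and 18 were not called. Of all genes 14.8% rose and 11.4% fell, and the median change of the list was 0.15. FKBP5, a chaperone that dampens steroid receptors, had 726 and 1080.1 CPM at 10 nM, against 774 and 855 CPM at 100 pM, and 28.1 and 44.4 CPM in vehicle (adjusted p = 0.801 between doses). SGK1, a kinase that controls sodium channels, had 30.1 and 46.2 CPM at 10 nM, against 34.3 and 49.8 CPM at 100 pM, and 0.308 and 0.352 CPM in vehicle (adjusted p = 0.824 between doses). For both, the doses overlapped far above vehicle. The members that rose were led by HSD17B2, which oxidises estradiol to estrone, with 4.13 and 8.01 CPM at 10 nM, against 0.441 and 0.844 CPM at 100 pM (3.24 ± 0.57). TIPARP, a mono-ADP-ribosyltransferase that represses the dioxin receptor, had 329.7 and 361 CPM at 10 nM, against 83.5 and 62.9 CPM at 100 pM (2.24 ± 0.31). CEBPD, a leucine zipper transcription factor, had 143 and 143 CPM at 10 nM, against 42.4 and 17.6 CPM at 100 pM (2.25 ± 0.57). MT2A, a metallothionein whose reads can be shared with its near-identical relatives, had 23.4 and 32.1 CPM at 10 nM, against 4.15 and 8.78 CPM at 100 pM (2.10 ± 0.41). The 2 that fell were ELF5, the transcription factor of alveolar differentiation, with 155 and 207 CPM at 10 nM, against 590.3 and 575 CPM at 100 pM (-1.69 ± 0.15, adjusted p = 1.05e-04), and the stress-induced NDRG1 (-0.69 ± 0.13). The call of CEBPD (without 10 nM 1, 10 nM 3 or 100 pM 3, adjusted p of 0.0511 to 0.109) was lost without 1 library.

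GREB1, a cofactor of the estrogen receptor that estrogen and progestins both induce, had 1106 and 983 CPM at 10 nM, against 499 and 432 CPM at 100 pM, with 160.2 and 156 CPM in vehicle (1.16 ± 0.12, 2.24-fold, adjusted p = 2.24e-04). Of 31 tested estrogen receptor targets 10 rose and 8 fell, beside 14.8% and 11.4% of all genes, and 13 were not called (median 0.11). CXCL12, the chemokine ligand of CXCR4, had 57.6 and 73.3 CPM at 10 nM, against 6.08 and 8.67 CPM at 100 pM (3.15 ± 0.22), where the 100 pM libraries lay below the vehicle libraries (26.5 and 21.4 CPM). RAPGEFL1, a guanine nucleotide exchange factor, had 153 and 123 CPM at 10 nM, against 33.0 and 24.7 CPM at 100 pM (2.26 ± 0.16). The largest called fall was in IGFBP4, a binding protein for insulin-like growth factors, with 30.7 and 31.3 CPM at 10 nM, against 132 and 137 CPM at 100 pM (-2.12 ± 0.12, adjusted p = 2.20e-05). XBP1, a transcription factor of the secretory pathway, had 503 and 652 CPM at 10 nM, against 1400.5 and 1479 CPM at 100 pM, with 499 and 669 CPM in vehicle (-1.32 ± 0.25). XBP1 at 10 nM was at the vehicle level.

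Of 16 tested enzymes that make or inactivate steroids 7 rose and 3 fell, beside 14.8% and 11.4% of all genes (median 0.40). HSD17B2 is given above. AKR1C3, which reduces estrone and other keto steroids and has close relatives that can share its reads, had 3.96 and 3.51 CPM at 10 nM, against 0.519 and 0.450 CPM at 100 pM (2.94 ± 0.44). HSD11B2, which inactivates cortisol, had 61.1 and 83.9 CPM at 10 nM, against 22.7 and 24.8 CPM at 100 pM, with 3.05 and 3.03 CPM in vehicle (1.61 ± 0.21, adjusted p = 7.37e-04). SULT2B1, a sulfotransferase for cholesterol and hydroxysteroids, fell to 18.7 and 25.7 CPM at 10 nM, against 44.2 and 47.01 CPM at 100 pM (-1.04 ± 0.22). UGT2B15, an androgen glucuronidating enzyme with a near-identical relative, had 3 counts in both 10 nM libraries together and 55 in both 100 pM libraries, a ratio of 0.0573 (exact 95% counting interval 0.0115 to 0.177, counting error only). The calls of SULT2B1 (without 10 nM 1, adjusted p = 0.0597) and UGT2B15 (without 10 nM 1, 10 nM 3, 100 pM 1 or 100 pM 3, adjusted p of 0.0646 to 0.132) were lost without 1 library.

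Many markers of luminal breast epithelium were lower at 10 nM. Of 23 tested luminal transcription factors and markers 12 fell and 2 rose, beside 11.4% and 14.8% of all genes, and 9 were not called. The median was -0.93, beside 0.01 over all genes. The 12 were 11 in each fit without 1 of the 4 libraries. EHF, an epithelial ETS factor, had 167 and 218 CPM at 10 nM, against 643 and 675 CPM at 100 pM, with 267 and 336 CPM in vehicle (-1.78 ± 0.22, adjusted p = 6.51e-04). SPDEF, an ETS factor of secretory cells, had 131 and 154 CPM at 10 nM, against 364 and 403 CPM at 100 pM (-1.43 ± 0.14). KRT18, a keratin of simple epithelia, had 501 and 609 CPM at 10 nM, against 1600.1 and 1485 CPM at 100 pM, with 1468 and 1355 CPM in vehicle (-1.47 ± 0.11, adjusted p = 5.40e-05). Its partner KRT8 had 913 and 1007 CPM at 10 nM, against 2499.6 and 2072 CPM at 100 pM (-1.25 ± 0.12). KRT19, a further keratin of luminal cells, had 1847 and 1752 CPM at 10 nM, against 3959 and 3895 CPM at 100 pM (-1.13 ± 0.10). FOXA1, the pioneer factor that opens chromatin for the estrogen receptor, had 87.0 and 118 CPM at 10 nM, against 226 and 278 CPM at 100 pM, with 384 and 403 CPM in vehicle (-1.30 ± 0.19). GATA3, its luminal partner, had 392 and 465 CPM at 10 nM, against 947 and 873 CPM at 100 pM (-1.09 ± 0.10) and was chosen after its values were seen. In 15 of the 23 both 10 nM libraries lay below both 100 pM libraries, beside 28.7% of all genes. That held for the 7 described here, all of them called. For KRT8, KRT18, KRT19 and GATA3 both 100 pM libraries were closer to vehicle than both 10 nM libraries were. KRT8 and KRT18 have many processed pseudogenes, to which reads can be assigned. The 2 that rose were MUC1, a membrane mucin (0.52 ± 0.13), and GRHL2, a grainyhead factor of epithelial junctions (0.40 ± 0.08). The call of MUC1 (without 10 nM 3 or 100 pM 3, adjusted p of 0.0957 to 0.111) was lost without 1 library. In bulk RNA, fewer cells that express a gene and less of its RNA per cell cannot be told apart.

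**Figure D3:**
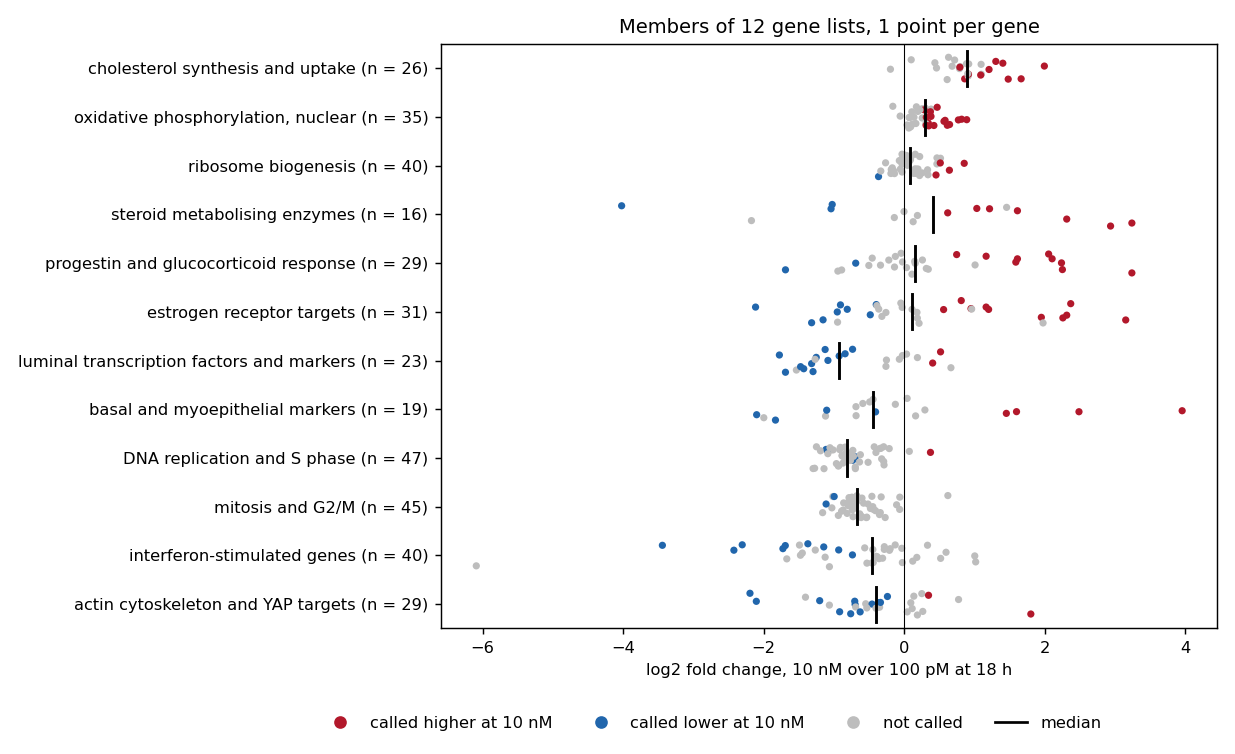
Log2 fold change of 10 nM over 100 pM at 18 h (x axis) of every tested member of 12 gene lists (rows), with called genes in red (higher) and blue (lower) and the median of each list as a black bar. Of the cholesterol genes 25 of 26 lie to the right of 0, and of the DNA replication and mitosis genes 45 of 47 and 44 of 45 lie to its left. Most DNA replication and mitosis genes are grey, which marks genes that were not called.

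Basal and myoepithelial markers were called in both directions: of 19 tested 4 rose and 4 fell, beside 14.8% and 11.4% of all genes, and 11 were not called. KRT5, a basal keratin that progestins are known to induce in subsets of breast cancer cells, had 2.35 and 7.02 CPM at 10 nM, against 0.182 and 0.422 CPM at 100 pM (3.95 ± 0.70, adjusted p = 0.00368). TP63, the transcription factor of basal cells, had 3.30 and 1.94 CPM at 10 nM, against 0.909 and 0.816 CPM at 100 pM, with 1.73 and 1.27 CPM in vehicle (1.597 ± 0.37). SOX9, a factor of luminal progenitors and stem cells, had 172 and 155 CPM at 10 nM, against 69.9 and 49.5 CPM at 100 pM (1.45 ± 0.16). KRT15, another keratin, fell, with 13.3 and 26.0 CPM at 10 nM, against 64.6 and 104 CPM at 100 pM (-2.10 ± 0.58). LAMA3, a laminin alpha chain that anchors hemidesmosomes, also fell, with 49.0 and 50.5 CPM at 10 nM, against 107 and 107 CPM at 100 pM (-1.10 ± 0.13). Calls lost without 1 library were TP63 (without 10 nM 1, 100 pM 1 or 100 pM 3, adjusted p of 0.0528 to 0.0914) and KRT15 (without 10 nM 1 or 100 pM 3, adjusted p of 0.130 to 0.162).

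Of 17 tested milk, apocrine and secretory genes 4 fell and 1 rose, beside 11.4% and 14.8% of all genes (median -0.42). Beside PIP and ELF5, the falls were in AGR2, a disulfide isomerase of the secretory pathway, with 117 and 151 CPM at 10 nM, against 315 and 265 CPM at 100 pM (-1.11 ± 0.16), and in S100A9. S100A9, a calprotectin subunit, had 5.02 and 5.45 CPM at 10 nM, against 36.3 and 14.9 CPM at 100 pM (-2.29 ± 0.64). AGR3, the neighbouring relative of AGR2, moved the other way, with 53.8 and 50.3 CPM at 10 nM, against 24.7 and 19.8 CPM at 100 pM (1.22 ± 0.16, adjusted p = 8.00e-04). The call of S100A9 (without 10 nM 1, 10 nM 3 or 100 pM 1, adjusted p of 0.101 to 0.161) was lost without 1 library. The casein genes CSN1S1 and CSN2 and LALBA, which encode milk proteins, had no count in any of the 4 libraries.

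Among ERBB receptors, the growth factor receptor ERBB2 fell to 150.0 and 158 CPM at 10 nM, against 414 and 399 CPM at 100 pM and 482 and 488 CPM in vehicle (-1.40 ± 0.08, adjusted p = 2.20e-05). ERBB4, a receptor for neuregulins, had 6.28 and 9.10 CPM at 10 nM, against 14.1 and 17.1 CPM at 100 pM (-1.02 ± 0.19). ERBB3 (-0.20 ± 0.09) and EGFR (-0.13 ± 0.22) were not called. Of their ligands, EPGN (epigen) had 3.64 and 3.74 CPM at 10 nM, against 12.1 and 11.54 CPM at 100 pM, with 3.41 and 3.82 CPM in vehicle (-1.68 ± 0.25). BTC (betacellulin) had 2.30 and 2.56 CPM at 10 nM, against 0.779 and 0.704 CPM at 100 pM (1.70 ± 0.35). EREG (epiregulin) had 45 counts in both 10 nM libraries together and 2 in both 100 pM libraries, a ratio of 23.6 (exact 95% counting interval 6.18 to 201). In all, 2 of 13 tested receptors and ligands rose and 3 fell, beside 14.8% and 11.4% of all genes. The calls of BTC (without 100 pM 3, adjusted p = 0.0502) and EREG (without 10 nM 1 or 100 pM 3, adjusted p of 0.0509 to 0.0748) were lost without 1 library. In the insulin and IGF pathway 7 of 24 rose and 5 fell, beside the same shares of all genes. IGF1, the ligand, had 1.18 and 0.646 CPM at 10 nM, against 7.11 and 3.72 CPM at 100 pM, with 0.112 and 0.0542 CPM in vehicle (-2.57 ± 0.43). IGF1R, its receptor, had 322 and 217 CPM at 10 nM, against 167 and 140.0 CPM at 100 pM (0.81 ± 0.21). IRS1, the docking protein of that receptor, had 56.5 and 89.9 CPM at 10 nM, against 124 and 159 CPM at 100 pM (-0.95 ± 0.24). The calls of IGF1R (without 10 nM 1 or 100 pM 3, adjusted p of 0.128 to 0.145) and IRS1 (without 10 nM 1 or 100 pM 3, adjusted p of 0.0954 to 0.105) were lost without 1 library.

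DNA replication genes were mostly lower at 10 nM but few passed the test, which did not include the replicate number. Of 47 tested, 45 had a log2 fold change below 0 and the median was -0.81. Yet 4 were called lower and 1 higher, beside 11.4% and 14.8% of all genes. With the replicate number as a term in the fit, 42 of the 47 were called lower, beside 3429 of all 13872 genes. The labels do not say what a number shares. Summed over its genes, the list had 1586 and 2816 CPM at 10 nM, 2952 and 4446 CPM at 100 pM and 1299.7 and 1662 CPM in vehicle. Replicate 3 was higher than replicate 1 in each group, so 10 nM 3 lay next to 100 pM 1. Leaving out 1 library leaves the doses unequal in replicate number, so the counts without 1 library below also depend on that number. Between libraries of the same number, 45 of 47 genes were lower at 10 nM in both numbers, with medians of -1.08 for replicate 1 and -0.68 for replicate 3. In 29 of the 47 both 10 nM libraries lay below both 100 pM libraries, beside 28.7% of all genes. The 4 called lower were MCM5, a subunit of the replicative helicase, with 25.7 and 50.2 CPM at 10 nM, against 71.3 and 92.9 CPM at 100 pM (-1.11 ± 0.35), FEN1, the flap endonuclease (-1.10 ± 0.32), POLD1, the catalytic subunit of polymerase delta (-0.73 ± 0.16), and DBF4, the activator of the CDC7 kinase (-0.69 ± 0.20). POLD2, another polymerase delta subunit, rose (0.37 ± 0.08). CDC6, which loads the helicase, had 13.4 and 33.96 CPM at 10 nM, against 45.5 and 70.9 CPM at 100 pM (adjusted p = 0.136, not called). The number called lower was 25 without 10 nM 3, 11 without 100 pM 1 and 0 without 10 nM 1 or without 100 pM 3. Calls lost were MCM5 (without 10 nM 1, 100 pM 1 or 100 pM 3, adjusted p of 0.0716 to 0.231), FEN1 (without 10 nM 1 or 100 pM 3, adjusted p of 0.175 to 0.201), POLD1 (without 10 nM 1 or 100 pM 3, adjusted p of 0.0571 to 0.0747) and DBF4 (without 10 nM 1 or 100 pM 3, adjusted p of 0.194 to 0.214).

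Of 45 tested mitosis genes 44 had a log2 fold change below 0 (median -0.68), 2 were called lower and 0 higher (0 higher also at an unadjusted p under 0.05 and by DESeq2). Of all genes 11.4% were called lower and 14.8% higher. With the replicate number as a term in the fit, 33 of the 45 were called lower and 1 higher, beside 3429 and 3529 of all 13872 genes. The list summed to 1195 and 2488 CPM at 10 nM, 2311 and 3807 CPM at 100 pM and 1195 and 1763 CPM in vehicle, so 10 nM 3 exceeded 100 pM 1. Here too, the counts without 1 library also depend on the replicate number. In 9 of the 45 both 10 nM libraries lay below both 100 pM libraries, beside 28.7% of all genes, and between libraries of the same number 42 of 45 were lower at 10 nM in both numbers. The 2 genes called without that term were ASPM, a spindle pole protein, and ECT2, the exchange factor of cytokinesis. ASPM had 36.3 and 55.1 CPM at 10 nM, against 93.3 and 104 CPM at 100 pM (-1.11 ± 0.18, adjusted p = 0.00234). ECT2 had 98.8 and 145 CPM at 10 nM, against 208 and 279 CPM at 100 pM (-0.997 ± 0.21). MKI67, the proliferation antigen, had 63.4 and 126 CPM at 10 nM, against 120.0 and 209.6 CPM at 100 pM, with 40.1 and 65.0 CPM in vehicle (-0.80 ± 0.38, adjusted p = 0.158). CCNB1, the mitotic cyclin, had 21.6 and 39.8 CPM at 10 nM, against 28.7 and 45.5 CPM at 100 pM, where the doses overlapped (adjusted p = 0.566). The number called lower was 11 without 10 nM 3, 5 without 100 pM 1 and 1 without 10 nM 1 or without 100 pM 3, and the call lost was ECT2 (without 10 nM 1 or 100 pM 3, adjusted p of 0.0513 to 0.0576).

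**Figure D4:**
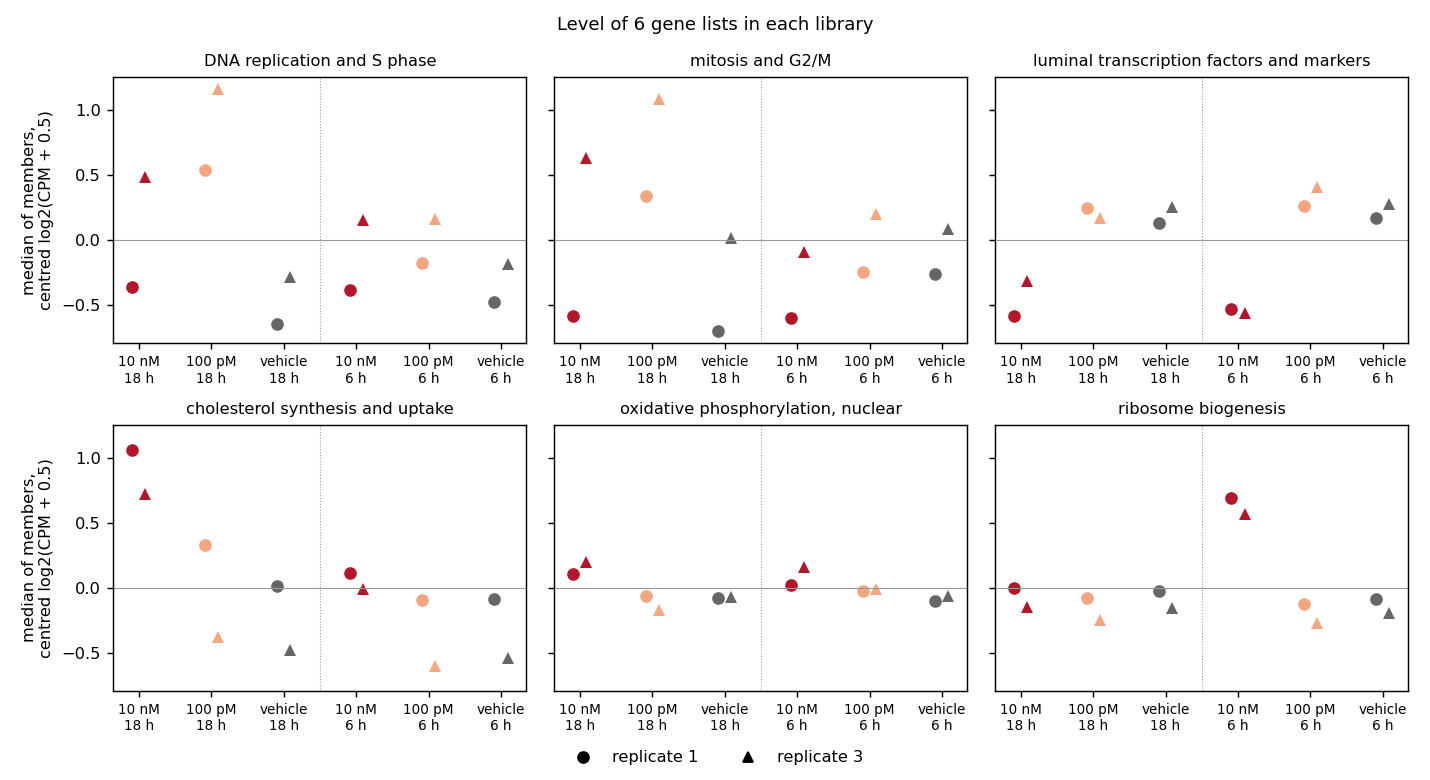
Median over the tested members of 6 gene lists of log2(CPM + 0.5), centred on each gene's mean over the 12 libraries, in every library (18 h left of the dotted line, 6 h right of it, with 10 nM in red, 100 pM in orange and vehicle in grey). At 18 h the DNA replication and mitosis lists are lower at 10 nM than at 100 pM within each replicate number and higher in replicate 3 (triangles) than in replicate 1 (circles), while the luminal list separates the doses in both.

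The promoters of the 2 called mitosis genes are shown since genes of this group share a cell cycle homology region (TTTGAA) and CCAAT boxes upstream of their starts. Both motifs, on either strand, are in capitals in RefSeq sequence (GRCh38.p14), given 5′ to 3′ on the strand of the gene.
ASPM, chr1:197146720-197146819, minus strand: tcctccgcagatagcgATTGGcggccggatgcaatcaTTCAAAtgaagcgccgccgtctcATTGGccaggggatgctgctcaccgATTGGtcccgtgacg
ECT2, chr3:172750591-172750690, plus strand: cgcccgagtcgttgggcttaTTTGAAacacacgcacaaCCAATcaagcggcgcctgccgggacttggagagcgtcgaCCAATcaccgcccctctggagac
Over the 250 bases before the start TTTGAA was found in 21 of 39 mitosis promoters in the table (53.8%), against 8.53% of promoters of all tested genes. CCAAT was found in 27 of the 39 (69.2%), against 34.9%. An E2F site (TTTCCCGC, TTTCGCGC, TTTGCCGC or TTTGGCGC, either strand) was found in 12 of 39 DNA replication promoters (30.8%), against 4.36%. These are again matches of letters, and binding was not measured.

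Of 15 tested G1 regulators 2 rose and 2 fell, a share near the 14.8% and 11.4% of all genes. CCND1, cyclin D1, had 242 and 257 CPM at 10 nM, against 369 and 261 CPM at 100 pM, with 103 and 93.0 CPM in vehicle, and was not called (adjusted p = 0.173). CCND3, cyclin D3, had 13.7 and 28.4 CPM at 10 nM, against 48.2 and 56.1 CPM at 100 pM (-1.31 ± 0.30). CDK2, the partner of cyclins E and A, had 52.5 and 82.8 CPM at 10 nM, against 104 and 143 CPM at 100 pM (-0.87 ± 0.23). CDKN1A, the inhibitor p21, rose to 79.5 and 70.4 CPM at 10 nM, against 46.1 and 45.2 CPM at 100 pM and 25.9 and 22.2 CPM in vehicle (0.72 ± 0.15). CDK6, a cyclin D partner, had 18.1 and 11.4 CPM at 10 nM, against 5.71 and 5.71 CPM at 100 pM (1.37 ± 0.37). MYC, the growth-promoting transcription factor, had 92.5 and 59.5 CPM at 10 nM, against 45.5 and 25.5 CPM at 100 pM (1.10 ± 0.33, adjusted p = 0.0390). Calls lost without 1 library were CCND3 (without 100 pM 3, adjusted p = 0.0676), CDK2 (without 10 nM 1 or 100 pM 3, adjusted p of 0.112 to 0.135), CDKN1A (without 10 nM 1, adjusted p = 0.0509), CDK6 (without 10 nM 1, 100 pM 1 or 100 pM 3, adjusted p of 0.0967 to 0.151) and MYC (without 10 nM 1 or 100 pM 3, adjusted p of 0.198 to 0.224).

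Among genes of cholesterol synthesis and uptake the calls were all rises. Of 26 tested 10 rose, 0 fell (also 0 at an unadjusted p under 0.05 and by DESeq2) and 16 were not called, and 25 had a log2 fold change above 0 (median 0.89). Of all genes 14.8% rose and 11.4% fell. In 20 of the 26 both 10 nM libraries lay above both 100 pM libraries, beside 31.4% of all genes. DHCR7, the last enzyme of one branch of cholesterol synthesis, had 710.0 and 768 CPM at 10 nM, against 237 and 134 CPM at 100 pM, with 193 and 111 CPM in vehicle (1.99 ± 0.39, adjusted p = 0.00595). PMVK, phosphomevalonate kinase, had 158 and 177 CPM at 10 nM, against 56.2 and 49.5 CPM at 100 pM (1.66 ± 0.12, adjusted p = 3.86e-05). SCAP, the escort protein that carries the sterol-sensing factor SREBP to the Golgi, had 193 and 178 CPM at 10 nM, against 71.5 and 68.8 CPM at 100 pM (1.40 ± 0.07, adjusted p = 1.34e-05), and the 100 pM libraries were at the vehicle level of 67.7 and 67.0 CPM. ABCA1, the cholesterol exporter, had 17.4 and 19.4 CPM at 10 nM, against 5.50 and 7.71 CPM at 100 pM (1.48 ± 0.40). HMGCS1, which makes HMG-CoA, had 679 and 389 CPM at 10 nM, against 424 and 195 CPM at 100 pM. Its value in 10 nM 3 lay below that in 100 pM 1 (adjusted p = 0.333, not called). Between libraries of the same number HMGCS1 was higher at 10 nM in both numbers. With the replicate number as a term in the fit it was called. Of the 26 genes, 25 were higher at 10 nM in both numbers. With that term 23 of the 26 were called higher, beside 3529 of all 13872 genes. Here too, the counts without 1 library also depend on the replicate number. The number that rose was 4 without 10 nM 1 or without 100 pM 3, and the call of ABCA1 (without 10 nM 1, 10 nM 3, 100 pM 1 or 100 pM 3, adjusted p of 0.0647 to 0.132) was lost.

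In fatty acid synthesis and lipid storage 9 of 25 rose and 3 fell, beside 14.8% and 11.4% of all genes (median 0.43). SCD, the desaturase that makes oleate, had 4105 and 3591 CPM at 10 nM, against 1590.1 and 844 CPM at 100 pM (1.66 ± 0.39). DGAT2, which completes triglycerides, had 16.7 and 23.5 CPM at 10 nM, against 9.22 and 6.19 CPM at 100 pM (1.38 ± 0.24). ACSL1, which activates fatty acids, had 382 and 528 CPM at 10 nM, against 269.7 and 167 CPM at 100 pM (1.06 ± 0.33). FASN, the fatty acid synthase, had 1215 and 2172 CPM at 10 nM, against 1668 and 1997 CPM at 100 pM, with 487 and 619 CPM in vehicle, and the doses overlapped (adjusted p = 0.848). CPT1A, the gate of mitochondrial fatty acid oxidation, fell to 272 and 269 CPM at 10 nM, against 431 and 469 CPM at 100 pM (-0.73 ± 0.09, adjusted p = 4.94e-04). Calls lost without 1 library were SCD (without 10 nM 1 or 100 pM 3, adjusted p of 0.0615 to 0.0847) and ACSL1 (without 10 nM 1, 10 nM 3 or 100 pM 3, adjusted p of 0.0589 to 0.217).

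Nuclear genes of oxidative phosphorylation rose by small amounts in large number: 16 of 35 tested rose, 0 fell (also 0 at an unadjusted p under 0.05 and by DESeq2), and 33 had a log2 fold change above 0 (median 0.30). Of all genes 14.8% rose and 11.4% fell. NDUFS1, a core subunit of complex I, had 201 and 192 CPM at 10 nM, against 106 and 107 CPM at 100 pM, with 99.8 and 100.1 CPM in vehicle (0.89 ± 0.08, adjusted p = 8.55e-05). UQCRC1 of complex III had 181 and 177 CPM at 10 nM, against 106 and 96.6 CPM at 100 pM (0.82 ± 0.08). NDUFB10 of complex I had 90.8 and 105 CPM at 10 nM, against 58.5 and 56.2 CPM at 100 pM (0.77 ± 0.11). Under the 4 scalings tried the median of the list stayed between 0.24 and 0.30, and 8 rose without 10 nM 3 and 9 without 100 pM 3. Without the replicate number in the fit, the 13 mitochondrially encoded subunits were not called (0 of 13 by edgeR, at an unadjusted p under 0.05 or by DESeq2, median 0.18). With that number as a term, 4 of the 13 were called higher and 0 lower, beside 3529 and 3429 of all 13872 genes. In glycolysis and the hypoxia response 2 of 25 rose and 3 fell, beside the same 14.8% and 11.4% of all genes. ALDOA, aldolase A, had 3778 and 3605 CPM at 10 nM, against 1771 and 1531 CPM at 100 pM (1.16 ± 0.12, adjusted p = 2.44e-04). PFKFB3, which makes the activator of phosphofructokinase, had 457 and 254 CPM at 10 nM, against 177 and 148 CPM at 100 pM (1.13 ± 0.25). PKM, pyruvate kinase, had 819 and 826 CPM at 10 nM, against 1187 and 1225 CPM at 100 pM (-0.55 ± 0.09). The call of PFKFB3 (without 10 nM 1 or 100 pM 3, adjusted p of 0.0503 to 0.0787) was lost without 1 library.

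Of 16 phosphatases and Sprouty-type inhibitors of MAP kinases 4 fell and 1 rose, beside 11.4% and 14.8% of all genes. DUSP4, a nuclear phosphatase of ERK, had 61.6 and 77.7 CPM at 10 nM, against 9.58 and 10.2 CPM at 100 pM, with 8.00 and 8.64 CPM in vehicle (2.82 ± 0.33, adjusted p = 4.75e-04). DUSP5, another ERK phosphatase, had 21.4 and 28.7 CPM at 10 nM, against 59.2 and 57.8 CPM at 100 pM (-1.23 ± 0.19). SPRED2, an inhibitor of RAF activation, had 49.6 and 50.9 CPM at 10 nM, against 116 and 115 CPM at 100 pM (-1.20 ± 0.09, adjusted p = 4.69e-05). Among TGF-beta genes 4 of 26 rose and 5 fell, beside 14.8% and 11.4% of all genes, and 2 ligands were among the falls. TGFB2 had 4.30 and 3.90 CPM at 10 nM, against 19.99 and 19.7 CPM at 100 pM, with 100.3 and 70.8 CPM in vehicle (-2.27 ± 0.23). TGFB3 had 42.8 and 58.7 CPM at 10 nM, against 169 and 201 CPM at 100 pM (-1.86 ± 0.25). ID3, an inhibitor of differentiation factors that BMP signals induce, had 13.4 and 12.2 CPM at 10 nM, against 38.5 and 37.9 CPM at 100 pM (-1.58 ± 0.26), while the receptors ACVR1 (1.68 ± 0.15) and TGFBR3 (1.83 ± 0.22) rose. In the Notch pathway 6 of 23 rose and 4 fell, beside 14.8% and 11.4% of all genes. DLL4, a Notch ligand, had 3.82 and 4.89 CPM at 10 nM, against 0.208 and 0.197 CPM at 100 pM (4.40 ± 0.35, adjusted p = 5.83e-05). JAG1, another ligand, had 89.1 and 68.0 CPM at 10 nM, against 40.9 and 31.8 CPM at 100 pM, with 9.65 and 9.26 CPM in vehicle (1.11 ± 0.18). MAML2, a coactivator of Notch, had 34.03 and 33.5 CPM at 10 nM, against 15.3 and 14.3 CPM at 100 pM (1.19 ± 0.08). The target HES4 had 31.3 and 32.7 CPM at 10 nM, against 76.4 and 66.7 CPM at 100 pM (-1.16 ± 0.13).

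Genes of the actin cytoskeleton and of YAP, a mechanically controlled coactivator, had more falls than rises: 12 of 29 fell and 2 rose, beside 11.4% and 14.8% of all genes (median -0.40). The 12 were 5 to 7 in the fits without 1 library. CTGF, a secreted YAP target, had 1.75 and 1.26 CPM at 10 nM, against 7.40 and 5.57 CPM at 100 pM (-2.10 ± 0.44). AMOTL2, a YAP-binding motin, had 104 and 81.7 CPM at 10 nM, against 240.1 and 187 CPM at 100 pM (-1.20 ± 0.20). FLNA, the actin crosslinker filamin A, had 1421 and 1172 CPM at 10 nM, against 2571 and 2331 CPM at 100 pM (-0.92 ± 0.26). VCL, vinculin of focal adhesions, rose, with 905 and 725 CPM at 10 nM, against 221 and 247 CPM at 100 pM (1.80 ± 0.18, adjusted p = 1.95e-04). From the separate list of tight and adherens junctions, CGN (cingulin) had 578 and 476 CPM at 10 nM, against 169 and 166 CPM at 100 pM (1.65 ± 0.11). THBS1, the matrix protein thrombospondin, had 151 and 191 CPM at 10 nM, against 423 and 489 CPM at 100 pM, with 142 and 153 CPM in vehicle (-1.41 ± 0.16). Calls lost without 1 library were CTGF (without 10 nM 3, adjusted p = 0.0516) and FLNA (without 10 nM 1, 10 nM 3, 100 pM 1 or 100 pM 3, adjusted p of 0.0771 to 0.126). Of 18 genes of ion and water transport 4 rose and 6 fell, beside 14.8% and 11.4% of all genes. SCNN1B, the beta subunit of the epithelial sodium channel, had 19.0 and 12.9 CPM at 10 nM, against 55.0 and 31.7 CPM at 100 pM (-1.45 ± 0.26).

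In the edgeR fit without the replicate number, interferon-stimulated genes fell or were not called. Of 40 tested 9 fell and 0 rose, beside 11.4% and 14.8% of all genes, and 31 were not called (median -0.45). At an unadjusted p under 0.05 in edgeR 2 were higher, and 2 were called higher by DESeq2. With the replicate number as a term in the fit 3 were called higher and 19 lower, beside 3529 and 3429 of all 13872 genes. Beside OAS2, OAS1, a related synthetase, had 2.58 and 1.54 CPM at 10 nM, against 14.5 and 5.85 CPM at 100 pM (-2.31 ± 0.57). IFITM1, a membrane restriction factor, had 1.69 and 1.85 CPM at 10 nM, against 8.05 and 3.69 CPM at 100 pM (-1.73 ± 0.52). IFI6 had 32.5 and 51.7 CPM at 10 nM, against 60.6 and 49.3 CPM at 100 pM, where the doses overlapped (adjusted p = 0.533). The list summed to 901 and 880.1 CPM at 10 nM, 1284 and 973 CPM at 100 pM and 1402 and 956 CPM in vehicle, so replicate 3 was lower than replicate 1 at 100 pM and in vehicle. The number that fell was 2 without 10 nM 1, 3 without 10 nM 3 or without 100 pM 1, and 10 without 100 pM 3, and calls lost were OAS1 (without 10 nM 1, 10 nM 3 or 100 pM 1, adjusted p of 0.0538 to 0.108) and IFITM1 (without 10 nM 1, 10 nM 3 or 100 pM 1, adjusted p of 0.111 to 0.214). In the BCL2 family 2 of 16 rose and 4 fell, beside 14.8% and 11.4% of all genes. BMF, which promotes cell death, rose, with 244 and 240.0 CPM at 10 nM, against 66.7 and 69.8 CPM at 100 pM (1.83 ± 0.17, adjusted p = 1.46e-04). BCL2L11 (BIM), which does so too, had 84.1 and 79.7 CPM at 10 nM, against 40.0 and 30.01 CPM at 100 pM (1.23 ± 0.23). MCL1, which blocks cell death, fell, with 437 and 387 CPM at 10 nM, against 764 and 619 CPM at 100 pM (-0.75 ± 0.17). BCL2, the founding member and another blocker, had 1.58 and 0.899 CPM at 10 nM, against 2.62 and 2.90 CPM at 100 pM, with 16.3 and 13.5 CPM in vehicle (-1.16 ± 0.37). MCL1 and BCL2 are only part of the 4 that fell, and the lowest log2 fold change in the family, -2.77, was in another gene. The members named here therefore do not give the direction of death promoters or of blockers as groups. The calls of MCL1 (without 100 pM 1, adjusted p = 0.0655) and BCL2 (without 10 nM 3, 100 pM 1 or 100 pM 3, adjusted p of 0.103 to 0.202) were lost without 1 library.

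The same doses compared at 6 h, in other libraries, gave 5127 calls (37.0%), 2795 higher (20.1%) and 2332 lower (16.8%). Upper quartile scaling gave 2326 higher and 2975 lower at 6 h and moved the 6 h median of all genes to -0.13. Without 100 pM 3 of 6 h the 6 h count was 3293. Of the genes called higher at 18 h, 1305 were also higher at 6 h and 65 were lower there. Of those called lower at 18 h, 845 were also lower at 6 h and 77 were higher there. Across genes the 2 sets of log2 fold changes correlated with Pearson's r of 0.691 and Spearman's rho of 0.562 (13872 genes, which are not independent replicates). The difference between the times was tested as the 18 h dose difference minus the 6 h one, and 1697 genes were called (12.2%), 769 more positive at 18 h (5.54%) and 928 more negative (6.69%). With upper quartile scaling 934 were more positive and 814 more negative. That count was 1123 without 10 nM 1, 1060 without 10 nM 3 and 939 without 100 pM 1. It was 835 without 10 nM 1 of 6 h, 1048 without 10 nM 3 of 6 h and 752 without 100 pM 3 of 6 h.

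The genes with the largest positive differences were mostly called lower at 10 nM at 6 h. FAM83A, a factor of EGF receptor signalling, had 0.221 and 0.169 CPM at 10 nM and 3.13 and 2.68 CPM at 100 pM at 6 h, and 4.68 and 11.2 CPM at 10 nM, against 10.3 and 6.16 CPM at 100 pM at 18 h (difference 3.82 ± 0.67, adjusted p = 0.00991). SOX2 had 0.0277 and 0.0846 CPM at 10 nM and 5.04 and 5.91 CPM at 100 pM at 6 h, and is given above for 18 h (difference 3.81 ± 0.997, adjusted p = 0.0405). SLITRK5, a synaptic adhesion protein, was below 100 pM at 6 h (-2.61) and above it at 18 h (0.55), with a difference of 3.16 ± 0.21. Its relative SLITRK6 (2.99 ± 0.58) and the sugar transporter SLC2A12 (2.77 ± 0.53) were called lower at 6 h and not called at 18 h. SLC15A2, a peptide transporter, was the exception: it had 3.79 and 6.29 CPM at 10 nM and 3.48 and 6.85 CPM at 100 pM at 6 h, and 18.0 and 29.4 CPM at 10 nM, against 2.67 and 3.43 CPM at 100 pM at 18 h (2.99 ± 0.59). Differences whose call was lost without 1 library were SOX2 (without 10 nM 3, 100 pM 1, 100 pM 3, 6 h 10 nM 1, 6 h 10 nM 3, 6 h 100 pM 1 or 6 h 100 pM 3, adjusted p of 0.0668 to 0.191), SLITRK6 (without 6 h 10 nM 1 or 6 h 10 nM 3, adjusted p of 0.0504 to 0.0522), SLC2A12 (without 6 h 10 nM 1, adjusted p = 0.0564) and SLC15A2 (without 100 pM 1, 6 h 10 nM 1 or 6 h 100 pM 3, adjusted p of 0.0538 to 0.0562).

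Negative differences were found in genes that fell and in genes that rose. BCAS1 (-2.57 ± 0.18), ENTPD3 (-2.19 ± 0.45) and AQP3 (-2.19 ± 0.26) fell at both times, and further at 18 h. BCAS1 had 84.8 and 80.6 CPM at 10 nM and 117 and 121 CPM at 100 pM at 6 h. CBR3, a carbonyl reductase, had 27.8 and 16.3 CPM at 10 nM and 1.05 and 1.09 CPM at 100 pM at 6 h, and 8.47 and 3.79 CPM at 10 nM, against 1.66 and 1.55 CPM at 100 pM at 18 h (-2.43 ± 0.56). PALMD, palmdelphin, had 30.7 and 34.8 CPM at 10 nM and 1.52 and 1.97 CPM at 100 pM at 6 h, and 4.71 and 5.45 CPM at 10 nM, against 0.909 and 1.999 CPM at 100 pM at 18 h (-2.42 ± 0.58). Both rose at both times, and less at 18 h. KCNC1, a potassium channel, was called lower at 18 h (-1.47 ± 0.38) and not called at 6 h (1.06), with a difference of -2.52 ± 0.54. At 18 h calls lost without 1 library were SLITRK5 (without 10 nM 3, 100 pM 1 or 100 pM 3, adjusted p of 0.0792 to 0.147), KCNC1 (without 10 nM 1 or 100 pM 3, adjusted p of 0.106 to 0.139), CBR3 (without 100 pM 3, adjusted p = 0.0526) and PALMD (without 10 nM 3 or 100 pM 1, adjusted p of 0.0574 to 0.0694). Differences lost without 1 library were ENTPD3 (without 10 nM 1, 10 nM 3 or 6 h 100 pM 3, adjusted p of 0.0552 to 0.0582), CBR3 (without 100 pM 1, 100 pM 3, 6 h 10 nM 1, 6 h 100 pM 1 or 6 h 100 pM 3, adjusted p of 0.0610 to 0.0818), PALMD (without 10 nM 1, 10 nM 3, 100 pM 3, 6 h 10 nM 1, 6 h 10 nM 3, 6 h 100 pM 1 or 6 h 100 pM 3, adjusted p of 0.0700 to 0.104) and KCNC1 (without 10 nM 1, 100 pM 3, 6 h 10 nM 3 or 6 h 100 pM 1, adjusted p of 0.0549 to 0.0641).

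**Figure D5:**
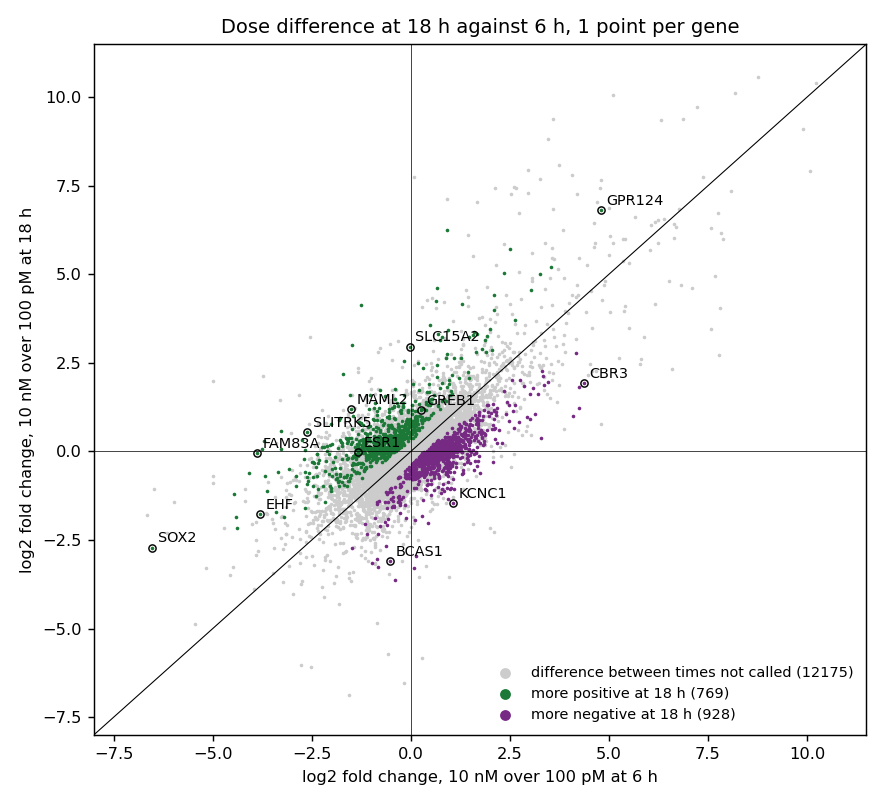
Log2 fold change of 10 nM over 100 pM at 18 h (y axis) against that at 6 h (x axis), 1 point per gene, with genes whose difference between the times was called in green (769 more positive at 18 h) and purple (928 more negative). SOX2 lies at -2.72 at 18 h and -6.53 at 6 h, and MAML2 lies at 1.19 and -1.52, on opposite sides of 0.

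Of the 43 gene lists, ribosome biogenesis had the largest share of genes with a called difference between the times. Of its 40 tested genes 36 rose at 6 h and 4 were not called (median 0.83), where 20.1% of all genes rose. At 18 h 4 rose and 1 fell (median 0.08), beside 14.8% and 11.4% of all genes. For 23 of the 40 the difference itself was called negative, beside 6.69% of all genes. NOP14, a factor of the small subunit, had 209.5 and 220.4 CPM at 10 nM and 82.2 and 77.2 CPM at 100 pM at 6 h, and 124 and 122 CPM at 10 nM, against 89.0 and 91.1 CPM at 100 pM at 18 h (difference -0.98 ± 0.10, adjusted p = 0.00149). NOP56, a core protein of the snoRNPs that methylate ribosomal RNA, was called higher at 6 h (0.98) and lower at 18 h (-0.37, adjusted p = 0.0457). POLR1C, a subunit of RNA polymerases I and III, had 17.5 and 18.3 CPM at 10 nM, against 20.6 and 19.1 CPM at 100 pM at 18 h and was not called there (difference -1.04 ± 0.12). TSR1, a maturation factor, rose at both times, with 137 and 139 CPM at 10 nM, against 78.1 and 74.6 CPM at 100 pM at 18 h (0.85 ± 0.08, adjusted p = 1.55e-04). The 18 h call of NOP56 (without 10 nM 1 or 100 pM 3, adjusted p of 0.253 to 0.269) was lost without 1 library, and under the 4 scalings the 18 h median of the list lay between 0.02 and 0.08.

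Some regulators were on opposite sides of the 100 pM level at the 2 times. MAML2 had 12.4 and 12.4 CPM at 10 nM and 36.5 and 34.6 CPM at 100 pM at 6 h (-1.52), and rose at 18 h, as given above (difference 2.70 ± 0.12, adjusted p = 4.97e-05). NR3C2 was lower at 10 nM at 6 h (-1.26) and higher at 18 h (0.79), with a difference of 2.05 ± 0.19. AGR3 (-0.80 at 6 h and 1.22 at 18 h), TP63 (-1.53 and 1.597), FOS, the immediate-early factor (-0.86 and 1.03), GRHL2 (-0.38 and 0.40) and WWTR1, the YAP relative TAZ (-0.46 and 0.35), were also called lower at 6 h and higher at 18 h. PER2, a repressor of the circadian clock, went the other way (0.54 and -0.61). ESR1 was lower at 10 nM at 6 h, with 49.2 and 71.1 CPM at 10 nM and 139 and 165 CPM at 100 pM (-1.34), and the doses met at 18 h (difference 1.31 ± 0.27, adjusted p = 0.0177). At 18 h calls lost without 1 library were FOS (without 10 nM 3 or 100 pM 1, adjusted p of 0.0962 to 0.124) and WWTR1 (without 10 nM 3 or 100 pM 3, adjusted p of 0.0734 to 0.0901), beside those of TP63 and SLITRK5 given above. Differences lost without 1 library were FOS (without 6 h 10 nM 1 or 6 h 100 pM 3, adjusted p of 0.0550 to 0.0603) and ESR1 (without 10 nM 3, 100 pM 1, 100 pM 3 or 6 h 100 pM 3, adjusted p of 0.0537 to 0.0722).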

How the data were processed

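RNA-seq of T47D cells was analysed from 1 table of raw gene counts for 12 libraries (6 groups of 2). The counts are as the authors deposited them, with 20114 gene symbols, of which 2709 had no count in any library. STAR, DESeq2 and the build hg19 are named, with no roles, per the submitters' processing notes. How reads were counted, on which strand and with which annotation is not given in the sources used here, so overlapping and antisense genes and near-identical copies are uncertain. Library totals ran from 34204970 to 41373890 counts, which are not independent molecules, so counting intervals cover counting error only. Replicates differed beyond sampling noise (chi-square per degree of freedom of counts 44.2 to 66.6 within groups), so none was counted as a duplicate.

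Genes were kept by edgeR's filterByExpr (13872), scaled by TMM and fitted in 1 quasi-likelihood model of the 6 groups (edgeR 4.0.16, R 4.3.3, 6 residual degrees of freedom). The fit was also run on simulated counts with known folds. Those counts held no effect of the replicate number, so that run cannot show how the fit handles such an effect. Contrasts were 10 nM against 100 pM at 18 h, the same at 6 h, and their difference, with Benjamini-Hochberg adjustment over all genes tested. CPM are counts over TMM-scaled totals. The groups came from the labels. Alternatives were other scalings, DESeq2 1.42.0, other filters, fewer libraries in the fit, the replicate number as a term and leaving out single libraries. Leaving out 1 library leaves the doses unequal in replicate number, so calls lost that way also depend on what a number shares.

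Members and gene lists were chosen with earlier results of these data known. Genes named are the 15 largest called rises and falls whose log2 CPM averaged 2 or more, with no overlap between the doses, the 6 largest differences between the times in each direction, PGR, ESR1, NR3C1, FKBP5, SGK1, GREB1, CCND1, MYC and MKI67, and from each list up to 4 called genes per direction and uncalled genes among its first 3. Antisense, clone-named and pseudogene symbols were not named, and a few genes that the rule would name are not reported here. Promoters are RefSeq sequence of GRCh38.p14, matched by symbol or synonym for 11141 of the tested genes.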

Additional observations from a re-analysis of the deposited data

Results flagged for a closer look

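For 50 of the 178 genes named in the text, the dose difference at 18 h was called different from that at 6 h by the test of the difference itself in edgeR (adjusted p under 0.05), where 12.2% of all genes were called. The 178 include genes named because their called differences were the largest, so the 2 shares are not a like comparison. Values are the log2 fold change of 10 nM over 100 pM at 18 h minus that at 6 h. They were positive for 30 genes and negative for 20, and 11 genes were called in opposite directions at the 2 times. Groups of 2 are too small to single out one library by its gap to the others.

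Among the genes with the largest rises and falls at 18 h, the difference was 2.02 for GPR124, 1.67 for STMN3, 1.52 for S100A1, 1.44 for PARN, 1.08 for TRAF5, 3.81 for SOX2, -1.24 for GRM4, -2.19 for AQP3, -2.19 for ENTPD3 and -2.57 for BCAS1. Among the genes with the largest differences it was 3.82 for FAM83A, 3.16 for SLITRK5, 2.99 for SLITRK6, 2.99 for SLC15A2, 2.77 for SLC2A12, -2.42 for PALMD, -2.43 for CBR3 and -2.52 for KCNC1. Differences lost without 1 library, beside those named in the report, were STMN3 (without 10 nM 3, 100 pM 1, 100 pM 3 or 6 h 100 pM 3, adjusted p of 0.0611 to 0.0801), S100A1 (without 10 nM 1, 100 pM 3, 6 h 10 nM 1, 6 h 10 nM 3, 6 h 100 pM 1 or 6 h 100 pM 3, adjusted p of 0.0562 to 0.101), PARN (without 100 pM 1 or 6 h 100 pM 3, adjusted p of 0.0530 to 0.0562) and GRM4 (without 10 nM 1, 10 nM 3, 100 pM 1, 100 pM 3, 6 h 10 nM 1, 6 h 10 nM 3, 6 h 100 pM 1 or 6 h 100 pM 3, adjusted p of 0.0536 to 0.104).

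In receptors, hormone targets and epithelial markers the difference was 3.13 for TP63, 2.05 for NR3C2, 2.04 for EHF, 2.02 for AGR3, 1.31 for ESR1, 1.29 for CXCL12, 0.91 for GREB1, 0.79 for GRHL2, 0.44 for CLDN12, -0.59 for ERBB2, -0.62 for KRT18, -0.86 for SPDEF, -0.95 for KRT8, -1.04 for RAPGEFL1 and -1.35 for IGFBP4. Lost without 1 library were CXCL12 (without 10 nM 3, 100 pM 1, 6 h 10 nM 1, 6 h 100 pM 1 or 6 h 100 pM 3, adjusted p of 0.0680 to 0.0847), CLDN12 (without 10 nM 1, 100 pM 1, 100 pM 3, 6 h 10 nM 1, 6 h 10 nM 3, 6 h 100 pM 1 or 6 h 100 pM 3, adjusted p of 0.0635 to 0.109), KRT18 (without 10 nM 1, 100 pM 1, 100 pM 3, 6 h 10 nM 1, 6 h 10 nM 3, 6 h 100 pM 1 or 6 h 100 pM 3, adjusted p of 0.0524 to 0.102), SPDEF (without 10 nM 1, 100 pM 3, 6 h 10 nM 1, 6 h 10 nM 3 or 6 h 100 pM 1, adjusted p of 0.0523 to 0.0746) and RAPGEFL1 (without 100 pM 1, 6 h 10 nM 1 or 6 h 100 pM 3, adjusted p of 0.0544 to 0.0663).

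In signalling and transcription the difference was 2.70 for MAML2, 1.92 for RNF43, 1.89 for FOS, 1.30 for JUNB, 1.04 for TFDP2, 0.96 for IER2, 0.92 for BMF, 0.80 for WWTR1 and -1.15 for PER2. In metabolism, growth and the cell cycle it was 1.19 for PMVK, 0.91 for ASPM, -0.47 for CPT1A, -0.53 for PKM, -0.75 for MANF, -0.98 for NOP14, -1.04 for POLR1C and -1.35 for NOP56. Lost without 1 library were RNF43 (without 100 pM 3 or 6 h 100 pM 3, adjusted p of 0.0563 to 0.0652), JUNB (without 10 nM 3, 100 pM 3, 6 h 10 nM 1, 6 h 10 nM 3 or 6 h 100 pM 1, adjusted p of 0.0516 to 0.0720), BMF (without 10 nM 1, 10 nM 3, 100 pM 1, 100 pM 3, 6 h 10 nM 1, 6 h 100 pM 1 or 6 h 100 pM 3, adjusted p of 0.0529 to 0.133), ASPM (without 10 nM 3, 100 pM 1, 100 pM 3, 6 h 10 nM 1, 6 h 10 nM 3, 6 h 100 pM 1 or 6 h 100 pM 3, adjusted p of 0.0812 to 0.148), CPT1A (without 10 nM 1, 10 nM 3, 100 pM 1, 100 pM 3, 6 h 10 nM 1, 6 h 10 nM 3, 6 h 100 pM 1 or 6 h 100 pM 3, adjusted p of 0.0546 to 0.130), PKM (without 10 nM 1, 10 nM 3, 100 pM 1, 100 pM 3, 6 h 10 nM 3, 6 h 100 pM 1 or 6 h 100 pM 3, adjusted p of 0.0582 to 0.0803) and MANF (without 10 nM 1, 10 nM 3, 100 pM 1, 100 pM 3, 6 h 10 nM 1, 6 h 10 nM 3, 6 h 100 pM 1 or 6 h 100 pM 3, adjusted p of 0.0603 to 0.106).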

How the results depend on the processing

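All 158 calls at 18 h of genes named in the text kept their direction in every alternative that gave a value; 101 stayed past the threshold in all of them, 49 lost their call without 1 library and 37 in another setting, all 37 of them with the 4 libraries alone. The count at 18 h was 3635, and 3395 to 4225 under the other scalings, DESeq2 and the looser filter. It was 3145 among genes whose log2 CPM averaged 2 or more, 2607 with the 18 h libraries alone and 1996 with the 4 libraries alone, where the fit rests on fewer libraries. DESeq2 called 2553 differences between the times, against 1697 in edgeR, and the cause was not tested. Leaving out single libraries gave 2288 to 2917 calls at 18 h, 3293 to 4257 at 6 h and 752 to 1295 for the difference. With the replicate number as a block the counts were 6958 at 18 h, 8231 at 6 h and 5215 for the difference, and they contained 100% of the calls made without it. Of the 20 named genes not called at 18 h, 6 were called with the block: CDC6, HMGCS1, MKI67, SLITRK6, CCND1 and ERBB3. For the difference 46 of 128 named genes were gained in this way. The labels do not say what a number shares, and deviations of same-numbered libraries correlated with r = 0.562 between 10 nM and 100 pM at 18 h and 0.464 to 0.677 over all 15 pairs of groups, with 2 numbers per group. The block lowered the biological coefficient of variation to 0.0678, against 0.163 without it. With it 3529 of the 13872 genes were called higher at 18 h and 3429 lower. Called lower were 42 of 47 DNA replication genes and 33 of 45 mitosis genes. Called higher were 23 of 26 cholesterol genes and 23 of 35 nuclear genes of oxidative phosphorylation. Depth limits the folds of 16 named genes with fewer than 50 counts in the 2 libraries of 1 dose at 18 h. These were at 100 pM SEPT14, CNTFR, SCRG1, ELFN2, MMP28, HSD17B2, KRT5 (22 counts), EREG (2), AKR1C3, AXIN2 (23), DLL4 (15) and VWF (8), and at 10 nM ENTPD3, CBLN2 (21), SOX2 (26) and UGT2B15 (3).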

Other observations

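Of 28 tested genes of the unfolded protein response 6 rose and 2 fell at 18 h, beside 14.8% and 11.4% of all genes (median 0.05). The same shares of all genes apply to the other lists of this paragraph. MANF, a secreted factor of the endoplasmic reticulum, had 66.3 and 73.3 CPM at 10 nM, against 28.7 and 26.5 CPM at 100 pM (1.34 ± 0.14, adjusted p = 2.13e-04). CREB3L4, a membrane-bound transcription factor known from androgen-responsive tissue, had 65.8 and 81.2 CPM at 10 nM, against 163 and 219 CPM at 100 pM (-1.38 ± 0.32), while its relative CREB3L2 had 309 and 253 CPM at 10 nM, against 156 and 169 CPM at 100 pM (0.79 ± 0.14). Of 20 heat shock chaperones 1 was called: FKBP4, a chaperone of steroid receptors, had 536 and 435 CPM at 10 nM, against 238 and 233 CPM at 100 pM (1.04 ± 0.12, adjusted p = 3.52e-04). Of 26 ATF4 targets 3 rose and 1 fell, led by STC2, a secreted glycoprotein that estrogen induces, with 199 and 135 CPM at 10 nM, against 397 and 333 CPM at 100 pM (-1.13 ± 0.24), and ALDH1L2, a mitochondrial folate enzyme, with 73.2 and 41.9 CPM at 10 nM, against 32.9 and 20.4 CPM at 100 pM (1.11 ± 0.32). Of 20 aminoacyl tRNA synthetases 1 rose (RARS, 0.54 ± 0.07) and of 15 genes of class I antigen presentation 1 fell (PSMB8, -0.67 ± 0.15). Of 17 replication-dependent histone genes 0 were called by edgeR, 1 was higher and 2 were lower at an unadjusted p under 0.05, and DESeq2 called 1 lower. With the replicate number as a term in the edgeR fit 2 were called higher and 3 lower, beside 3529 and 3429 of all 13872 genes.

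In the Wnt pathway, 4 of 27 rose and 3 fell, beside 14.8% and 11.4% of all genes, shares that also apply to the lists below. AXIN2, a feedback inhibitor that Wnt signals induce, had 1.58 and 1.77 CPM at 10 nM, against 0.156 and 0.479 CPM at 100 pM (2.40 ± 0.47), whereas RNF43, another feedback inhibitor, had 14.1 and 22.4 CPM at 10 nM, against 38.0 and 34.1 CPM at 100 pM (-0.98 ± 0.27). In the IL1 and NF-kB list 1 of 24 rose and 2 fell. IL1R1, the receptor of interleukin 1, had 5.57 and 3.26 CPM at 10 nM, against 28.3 and 19.2 CPM at 100 pM (-2.43 ± 0.48, adjusted p = 0.00652), IL18 had 10.9 and 11.1 CPM at 10 nM, against 19.9 and 22.0 CPM at 100 pM (-0.93 ± 0.09), and SOD2, the mitochondrial superoxide dismutase, had 674 and 796 CPM at 10 nM, against 203 and 73.3 CPM at 100 pM (2.41 ± 0.46). Among 21 AP-1 and immediate-early factors MYC and FOS rose, and IER2, with 33.3 and 38.7 CPM at 10 nM, against 70.8 and 61.1 CPM at 100 pM (-0.87 ± 0.11), and JUNB, with 30.7 and 38.8 CPM at 10 nM, against 67.0 and 45.3 CPM at 100 pM (-0.69 ± 0.21), fell. Of 19 clock genes 1 rose, CLOCK, with 108 and 61.5 CPM at 10 nM, against 44.8 and 36.9 CPM at 100 pM (1.06 ± 0.30), and 4 fell, led by BHLHE40, a repressor of the clock, with 79.3 and 88.5 CPM at 10 nM, against 234 and 205 CPM at 100 pM (-1.39 ± 0.11). Of 21 nuclear receptor coregulators 0 rose (1 at an unadjusted p under 0.05 in edgeR, 0 by DESeq2) and 4 fell, led by CITED2, with 176 and 187 CPM at 10 nM, against 398 and 389.6 CPM at 100 pM (-1.12 ± 0.09). With the replicate number as a term in the fit 6 coregulators were called higher and 7 lower. Of all 13872 genes, 3529 were higher and 3429 lower in that fit. In the RB and E2F family 2 of 13 rose, TFDP2 (0.72 ± 0.10) and E2F3 (0.49 ± 0.09), and 2 fell, RB1 (-0.36 ± 0.07) among them. Of 28 integrins, laminins and collagens 4 rose, led by COL6A2, with 23.3 and 8.45 CPM at 10 nM, against 4.73 and 3.10 CPM at 100 pM (2.02 ± 0.47), and 7 fell, FN1 among them (-0.85 ± 0.12). Of 29 junction genes 7 rose, CLDN12 among them (1.18 ± 0.08), and 5 fell, led by the splicing regulator ESRP2 (-0.98 ± 0.12).

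Calls lost without 1 library were FOS (without 10 nM 3 or 100 pM 1, adjusted p of 0.0962 to 0.124), JUNB (without 10 nM 1 or 100 pM 1, adjusted p of 0.202 to 0.213), RNF43 (without 10 nM 1, 100 pM 1 or 100 pM 3, adjusted p of 0.0726 to 0.159), CLOCK (without 10 nM 1, 100 pM 1 or 100 pM 3, adjusted p of 0.0714 to 0.209), STC2 (without 100 pM 1, adjusted p = 0.0501), PSMB8 (without 10 nM 3 or 100 pM 1, adjusted p of 0.0569 to 0.0677), CREB3L4 (without 10 nM 1 or 100 pM 3, adjusted p of 0.0745 to 0.0872), ALDH1L2 (without 10 nM 1 or 100 pM 3, adjusted p of 0.183 to 0.225), COL6A2 (without 10 nM 1 or 100 pM 3, adjusted p of 0.0914 to 0.0964) and RB1 (without 10 nM 1, adjusted p = 0.0548), beside MYC, whose values without 1 library are in the report.

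The collagen gene COL3A1, chosen after its values were seen, followed the replicate number and not the dose, with 0.603 and 5.98 CPM at 10 nM, against 0.623 and 6.42 CPM at 100 pM and 1.15 and 7.53 CPM in vehicle. COL1A1 did not, with 79.7 and 66.1 CPM at 10 nM, against 81.3 and 75.9 CPM at 100 pM.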
